A study of Mus musculus with 4 samples.

Results

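The 39 Hox genes of the 4 mouse clusters were described on 4 arrays of back and tail skin. Members were all genes named Hoxa, Hoxb, Hoxc or Hoxd with a number, found through the accession of each array probe, and 37 of 39 had a probe, against 17008 named genes on the arrays in all. Hoxc6 and Hoxc11 had no matched probe and were not analysed here. There were 11 members in the Hoxa cluster, 10 in Hoxb, 7 in Hoxc and 9 in Hoxd, and 47 probes in all, of which the brightest stood for each gene. 27 of the genes had a single probe.

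Hox genes encode homeodomain transcription factors that set position along the body axis. Within a cluster their order on the chromosome follows the order of their expression from head to tail, so low paralogue numbers mark anterior and high numbers posterior positions, and genes with the same number in different clusters are paralogues. Adult skin keeps part of this code, mainly in dermal fibroblasts, and some members also have local roles, such as Hoxc13 in the hair follicle.

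The study compared mouse skin with and without a photodynamic treatment, in which methyl aminolevulinate cream is turned by cells into a porphyrin that produces reactive oxygen under red light. The 4 groups were tail skin without treatment, tail skin given the cream and 10 J/cm2 of light, back skin without treatment, and back skin given the cream and 2.5 J/cm2, so light dose and skin site cannot be told apart. Light of 636 nm followed 2.5 h in the dark, RNA was taken at 48 h, and treated backs had been shaved. Strain, sex and age are not given in the sources used here. The design names 3 animals a group, but each group has 1 array, and whether RNA of several animals was pooled on it is not given. No difference below therefore has a replicate check, no test was possible, and array and group cannot be told apart. For tail, the labels say skin and the protocol for RNA isolation says epidermis. Of 10 listed fibroblast markers, Col1a1, Col1a2, Col3a1, Dcn, Lum, Vim, Thy1 and Pdgfrb were well above background on all 4 arrays. Pdgfra was not so on either tail array, and Twist2 was not so on tail treated.

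Levels are the log2 of the probe signal over the 75th percentile of its array, which was 6995.8 on tail control, 901.1 on tail treated, 1830.3 on back control and 1191.1 on back treated. Levels of different genes come from different probes and cannot be ranked. A gene was called when a difference was at least 2-fold. Where 1 array was not well above background, the difference is a bound against the lowest signal that was well above background on that array, written as at least so many fold. Bounds depend on the depth of the array: that signal was 22.3 on tail control, 10.3 on tail treated, 20.1 on back control and 17.3 on back treated. For the Hox genes with a measured difference, the scanner's own error of a difference was 0.20 to 0.38 on the log2 scale, which covers spot noise and not the spread between animals. In bulk skin, fewer cells of a type and less RNA per cell cannot be told apart.

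RefSeq start sites of GRCm38.p6 gave 24 windows of 250 bases upstream for 22 of the Hox genes. The windows of 3 genes that were lower in back skin (Hoxd9, Hoxd11, Hoxa10), 1 that was higher there (Hoxa2) and 1 within 2-fold between the skins (Hoxa7) are shown to set promoter letters beside these patterns. Each is printed on the strand of its gene, with capitals for matches on either strand to TTTATG, a site type of posterior Hox and Cdx proteins, or to TGATNNAT, a site type of Hox and Pbx pairs.
Hoxd9, chr2:74697513-74697762, plus strand: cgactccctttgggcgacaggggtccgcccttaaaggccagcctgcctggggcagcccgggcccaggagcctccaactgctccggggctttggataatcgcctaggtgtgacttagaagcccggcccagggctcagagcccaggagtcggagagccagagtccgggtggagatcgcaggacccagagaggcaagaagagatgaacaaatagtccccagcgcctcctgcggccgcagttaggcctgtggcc
Hoxd11, chr2:74679308-74679557, plus strand: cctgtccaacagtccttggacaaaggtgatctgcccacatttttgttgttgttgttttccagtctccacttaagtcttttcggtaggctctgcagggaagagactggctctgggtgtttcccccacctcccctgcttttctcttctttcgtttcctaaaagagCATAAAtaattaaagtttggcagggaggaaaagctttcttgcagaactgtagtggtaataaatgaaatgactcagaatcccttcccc
Hoxa10, chr6:52240855-52241104, minus strand: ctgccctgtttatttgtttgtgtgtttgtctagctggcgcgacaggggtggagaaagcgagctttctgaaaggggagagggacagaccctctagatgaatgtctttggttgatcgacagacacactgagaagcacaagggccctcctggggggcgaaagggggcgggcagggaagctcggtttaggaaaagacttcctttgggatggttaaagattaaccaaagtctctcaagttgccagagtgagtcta
Hoxa2, chr6:52164832-52165081, minus strand: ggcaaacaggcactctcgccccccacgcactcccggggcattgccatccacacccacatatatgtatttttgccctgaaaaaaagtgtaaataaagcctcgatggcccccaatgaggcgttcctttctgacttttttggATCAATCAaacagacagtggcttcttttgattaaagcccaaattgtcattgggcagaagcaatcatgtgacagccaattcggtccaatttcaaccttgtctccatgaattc
Hoxa7, chr6:52218574-52218823, minus strand: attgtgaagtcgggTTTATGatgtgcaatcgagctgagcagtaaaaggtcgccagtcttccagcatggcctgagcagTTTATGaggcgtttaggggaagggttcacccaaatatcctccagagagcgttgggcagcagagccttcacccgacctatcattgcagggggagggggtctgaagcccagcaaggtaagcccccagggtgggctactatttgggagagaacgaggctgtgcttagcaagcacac
TTTATG occurred in 5 of the 24 Hox windows and in 10.8% of 32851 windows of all genes, and TGATNNAT in 4 of 24 and in 7.68%. Among 10 windows of genes lower in back skin, 2 held the former and 1 the latter. The printed windows of Hoxd9 and Hoxa10 held neither, and that of Hoxa7 held TTTATG at 2 positions. Hoxd11 and Hoxa10 have another window each that is not printed. That of Hoxd11 held TGATNNAT and no TTTATG, with 20 CpG against 2 in its printed window, and that of Hoxa10 held neither motif. Hox windows had a median of 12.5 CpG and 58.6% GC, against 6.0 and 52.4% over all genes. A match is a description of letters and not of a bound site.

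Most Hox genes were detected in tail skin, while 9 of 15 genes of groups 9 to 13 were well above background on back control and 5 on back treated. Well above background were 35 of 36 Hox genes with a usable spot on tail control, 33 of 37 on tail treated, 29 of 37 on back control and 24 of 36 on back treated. Over all named genes with a value the share also fell from tail to back, from 88.6% on tail control and 84.7% on tail treated to 82.6% on back control and 79.1% on back treated. Groups 1 to 8 hardly differed in this respect, with 20 of 21 genes detected on tail control and 20 of 22 on back control. The 15 genes of groups 9 to 13 were all detected on tail control, and 14 of them on tail treated. Hoxd1 was not well above background on any array, and the 10 repeated Hoxb1 spots were so 7 times on tail control and 0 times on back control.

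**Figure D1:**
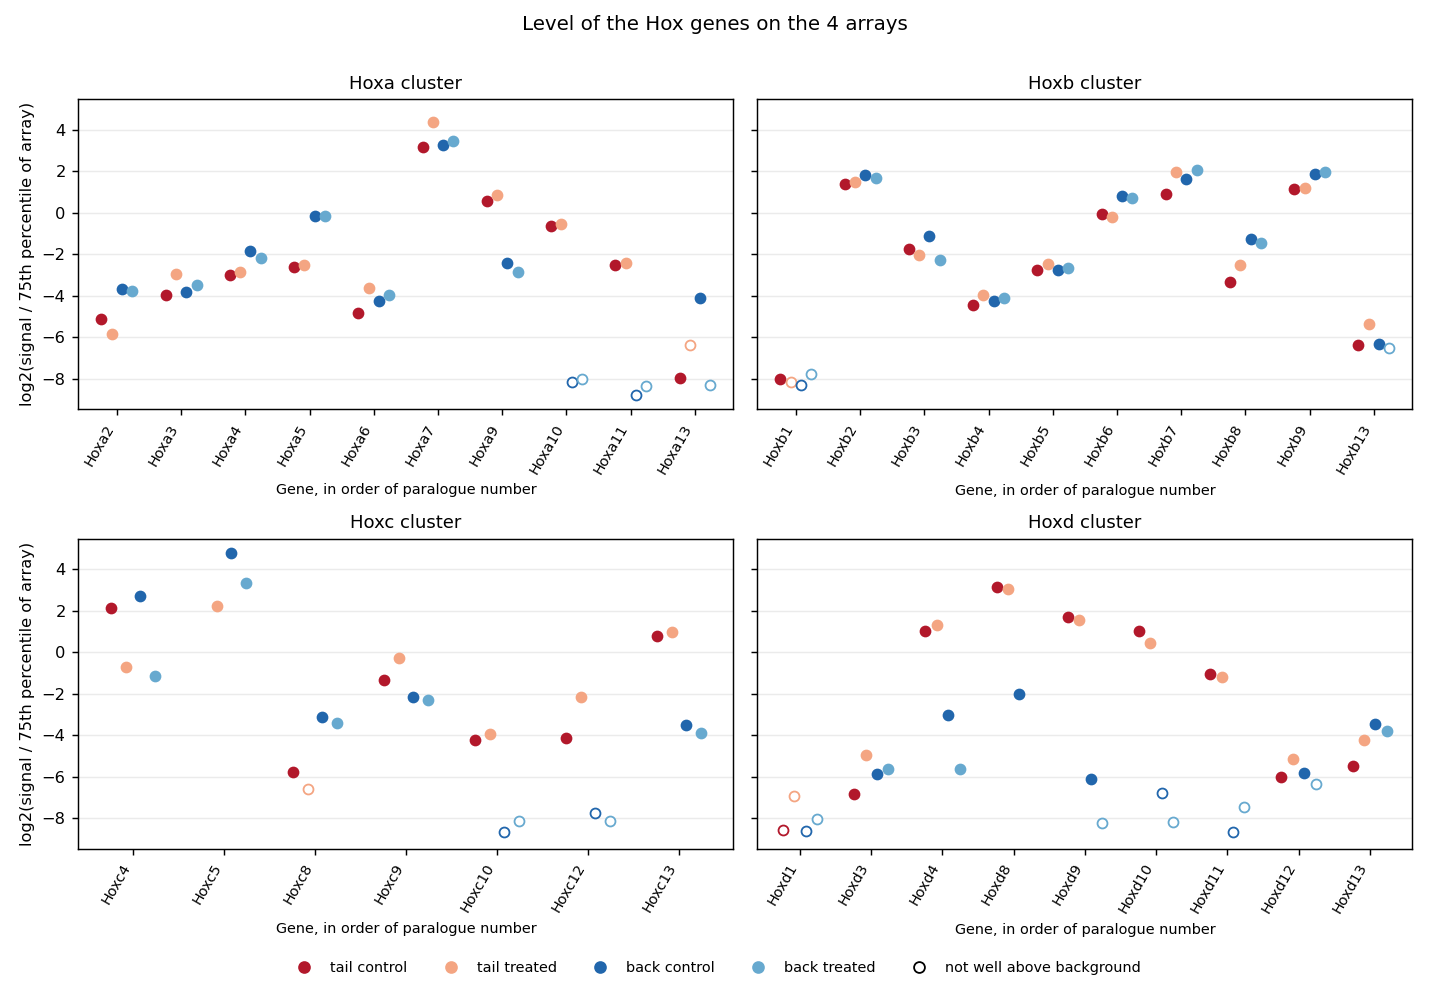
Scaled level (log2 of signal over the 75th percentile of the array) of the Hox genes on the 4 arrays, 1 panel a cluster, genes in order of paralogue number and 1 point an array. Open points were not well above background, and for Hoxa9 to Hoxa11, Hoxc9 to Hoxc13, Hoxd4 and Hoxd8 to Hoxd11 the red tail points stand above the blue back points, while most Hoxb points of a gene lie close together.

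Between untreated skins, 9 of the 15 genes of groups 9 to 13 were lower in back, with 6 bounds among them, and 2 were higher (Hoxa13 and Hoxd13). In groups 1 to 8, 6 of 19 genes with a value were higher and 2 lower. Of 34 Hox genes with a value in back control minus tail control, 8 were at least 2-fold higher in back and 11 lower, which is 23.5% and 32.4%, against 26.5% and 18% of all named genes. The median Hox difference was 0.20, against 0.16 over all genes. Other processing moved the balance of calls over all genes, to 19.4% higher and 21.1% lower with cyclic loess and to 32% and 14.1% with normexp, a model of spot signal over its local background. Between the treated skins, on 2 other arrays, 6 of 33 Hox genes were higher and 11 lower in back, which is 18.2% and 33.3%, against 15.9% and 20.4% of all genes (11.8% and 42.6% with normexp), with medians of -0.43 and -0.23.

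Most of the lower genes were of groups 9 to 12. There, 8 of 11 genes were lower in back control, with a median of -2.96, and 9 of 11 in back treated, with a median of -3.74, counting bounds. In group 13, 2 of 4 genes were higher and 1, Hoxc13, lower in the control pair, and 0 of 3 higher and 1 lower in the treated pair. In groups 1 to 4, 1 of 10 was lower in each pair, Hoxd4. In groups 5 to 8, 1 of 9 was lower in the control pair, Hoxd8, and 0 of 9 in the treated pair, where the Hoxd8 spot was left out. Without bounds, 5 of 28 Hox genes were lower between the control skins, 17.9% against 17.1% of all named genes measured on both arrays. Between the treated skins 4 of 23 were lower, 17.4% against 19.3%. Without bounds the Hox shares were thus near those of all genes.

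The largest measured gap in each pair was in the Hoxd cluster, while bounds cannot be ranked. Hoxd9, which helps pattern limb and axial skeleton, had levels of 1.67 on tail control and 1.53 on tail treated against -6.11 on back control and -8.25 on back treated, the last not well above background. That is 220-fold lower in back control (log2 difference -7.78) and at least 199-fold lower in back treated, and its second probe gave -4.34 in the control pair and a bound of -5.80 in the treated pair. Hoxd10, a posterior gene of limb and motor neurons, stood at 1.01 and 0.46 on the tail arrays and was not well above background on either back array, at least 183-fold and at least 94.6-fold lower. Hoxd11, a gene of the forearm and kidney, stood at -1.03 and -1.18 in tail and was not well above background in back, at least 44.6-fold and at least 30.3-fold lower. In all 3 genes both tail arrays were high and both back arrays low. With normexp the gaps were smaller, at -5.87 and -5.15 for Hoxd9, -5.56 and -4.30 for Hoxd10 and -3.66 and -3.60 for Hoxd11 in the control and treated pair.

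2 more anterior Hoxd genes shared this pattern. Hoxd8 had a signal of 61867 on tail control, 7291 on tail treated and 458 on back control, a level of 3.14, 3.02 and -2.0, so it was 35.3-fold lower in back control. Its back treated spot was marked as an outlier and left out. Its tail control signal was close to that of Krt31 (62539), which was marked as saturated on that array. The tail control level of Hoxd8 may thus be cut off, and differences against it are uncertain. Hoxd4, of hindbrain and neck patterning, had levels of 1.02 and 1.29 in tail against -3.04 and -5.62 in back, a log2 difference of -4.06 between control skins and -6.91 between treated skins. Hoxd3, the next anterior gene, differed by 0.96 and -0.69 on its brightest probe, with no call, while its other probe gave a bound of -2.38 in the control pair.

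The far posterior Hoxd genes were faint and did not fall below 2-fold in the control pair. Hoxd12 lay at -6.02 on tail control and -5.16 on tail treated, and at -5.82 and -6.33 on the back arrays, the last not well above background, and differed by 0.20 between control skins (1.09 with normexp). In the treated pair it was at least 1.93-fold lower in back, a bound that leaves a 2-fold call undecided, and -3.08 with normexp. Hoxd13, a gene of digits and genital tubercle, lay at -5.47, -4.23, -3.46 and -3.79, so that it was 4.01-fold higher in back control and within 2-fold in the treated pair (0.43), where normexp gave -2.01. The second Hoxd13 probe was not well above background on any array.

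In the Hoxa cluster the break fell between Hoxa7 and Hoxa9. Hoxa9, which acts in blood progenitors and the axial skeleton, had levels of 0.54 and 0.86 in tail and -2.42 and -2.88 in back, 7.80-fold and 13.4-fold lower in back. Hoxa10 and Hoxa11, both needed in the female reproductive tract, were not well above background on either back array. Hoxa10 stood at -0.65 and -0.54 in tail and was at least 57.7-fold and at least 47.5-fold lower in back, and Hoxa11 at -2.53 and -2.45, at least 15.7-fold and at least 12.6-fold lower. With normexp Hoxa10 was at -3.91 and -3.69 and Hoxa11 at -2.10 and -3.29. Hoxa7 itself was high on all 4 arrays, with levels of 3.18, 4.34, 3.28 and 3.46, and differed by 0.10 and -0.88. The control-pair value was -0.73 with cyclic loess and -0.83 with quantile scaling. Its tail control signal of 63283 was not marked as saturated, but that of Krt31, at 62539 on the same array, was. The tail control level of Hoxa7 may thus be cut off, and differences against it are uncertain.

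Some anterior Hoxa genes went the other way. Hoxa3 and Hoxa6 were called in neither pair, at 0.12 and -0.57 and at 0.57 and -0.32. With normexp their treated-pair values were -1.97 and -2.27. Hoxa5, which patterns the lung and cervical region, had levels of -2.62 and -2.51 in tail against -0.17 and -0.18 in back, 5.48-fold and 5.01-fold higher in back, though the treated pair differed by 0.70 with normexp. Hoxa2, which patterns the second pharyngeal arch, stood at -5.11 and -5.86 in tail and at -3.68 and -3.76 in back, differences of 1.43 and 2.10, the latter turning to -1.97 with the normexp background. Hoxa4 was 2.19-fold higher in back control (levels -3.01 and -1.87) and within 2-fold in the treated pair (-2.86 and -2.21, with -1.08 under normexp), and fell short of 2-fold in the authors' value table. The other Hoxa4 probe had no value in the control pair and a bound of -0.56 in the treated pair. Hoxa13, a gene of digits and the urogenital tract, was higher in back control, with signals of 28.3 on tail control and 107.8 on back control (3.86 on the log2 scale), and was not well above background on either treated array, while its second probe was not so on any array.

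Hoxc genes split in the same order. Hoxc8, of the thoracic region, had levels of -5.75 and -6.59 in tail, the latter not well above background, and -3.13 and -3.43 in back, 6.14-fold higher and at least 8.15-fold higher there. Hoxc9, of the thoracic region too, had levels of -1.35 and -0.30 in tail and -2.18 and -2.30 in back, within 2-fold in the control pair (-0.82) and 3.99-fold lower in back in the treated pair. Hoxc10, of the lumbar region and hindlimb, was at -4.23 and -3.93 in tail and not well above background in back, at least 4.83-fold and at least 4.51-fold lower. Hoxc12, expressed in hair follicles, was at -4.14 and -2.17 in tail and not well above background in back, at least 5.15-fold and at least 15.3-fold lower. With the normexp background the control-pair bounds of Hoxc10 and Hoxc12 fell below 2-fold, to -0.65 and -0.71.

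Hoxc13, which drives hair keratin genes in follicles of any body site, was also lower in back. Its levels were 0.77 and 0.98 in tail and -3.52 and -3.91 in back, 19.5-fold and 29.8-fold lower, with all 4 spots well above background. Hoxc5 was 2.15-fold higher in back treated than in tail treated (levels 3.31 and 2.21), and its tail control spot was left out. Hoxc4 differed by 0.59 and -0.43 between the skins.

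In the Hoxb cluster 1 gene of 9 with a value, Hoxb8, was called in each pair. The other 8 lay within 2-fold in the control pair. In the treated pair 7 did, and Hoxb13 had only a bound. Hoxb8 had levels of -3.36 and -2.53 in tail and -1.29 and -1.47 in back, differences of 2.07 and 1.06, the latter turning to -0.44 with normexp. The other Hoxb8 probe gave 1.38 in the control pair and a bound of -0.06 in the treated pair, so it was not higher in back there. Hoxb9, the paralogue of Hoxa9 and Hoxd9, had levels of 1.15 and 1.20 in tail and 1.86 and 1.96 in back, 0.71 and 0.75 higher in back and thus within 2-fold, the latter 1.01 with normexp. Hoxb13, the tail-bud gene of its cluster, was faint, at -6.38, -5.38, -6.34 and -6.50, the last not well above background, and differed by 0.04 between control skins (1.18 with normexp). In the treated pair it was at least 1.65-fold lower in back, and -3.05 with normexp. The other Hoxb genes with a value, Hoxb2 to Hoxb7, differed by 0.00 to 0.86 between the control skins and by -0.27 to 0.91 between the treated skins, where normexp gave -1.22 for Hoxb3, -2.21 for Hoxb4 and -1.49 for Hoxb5.

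**Figure D2:**
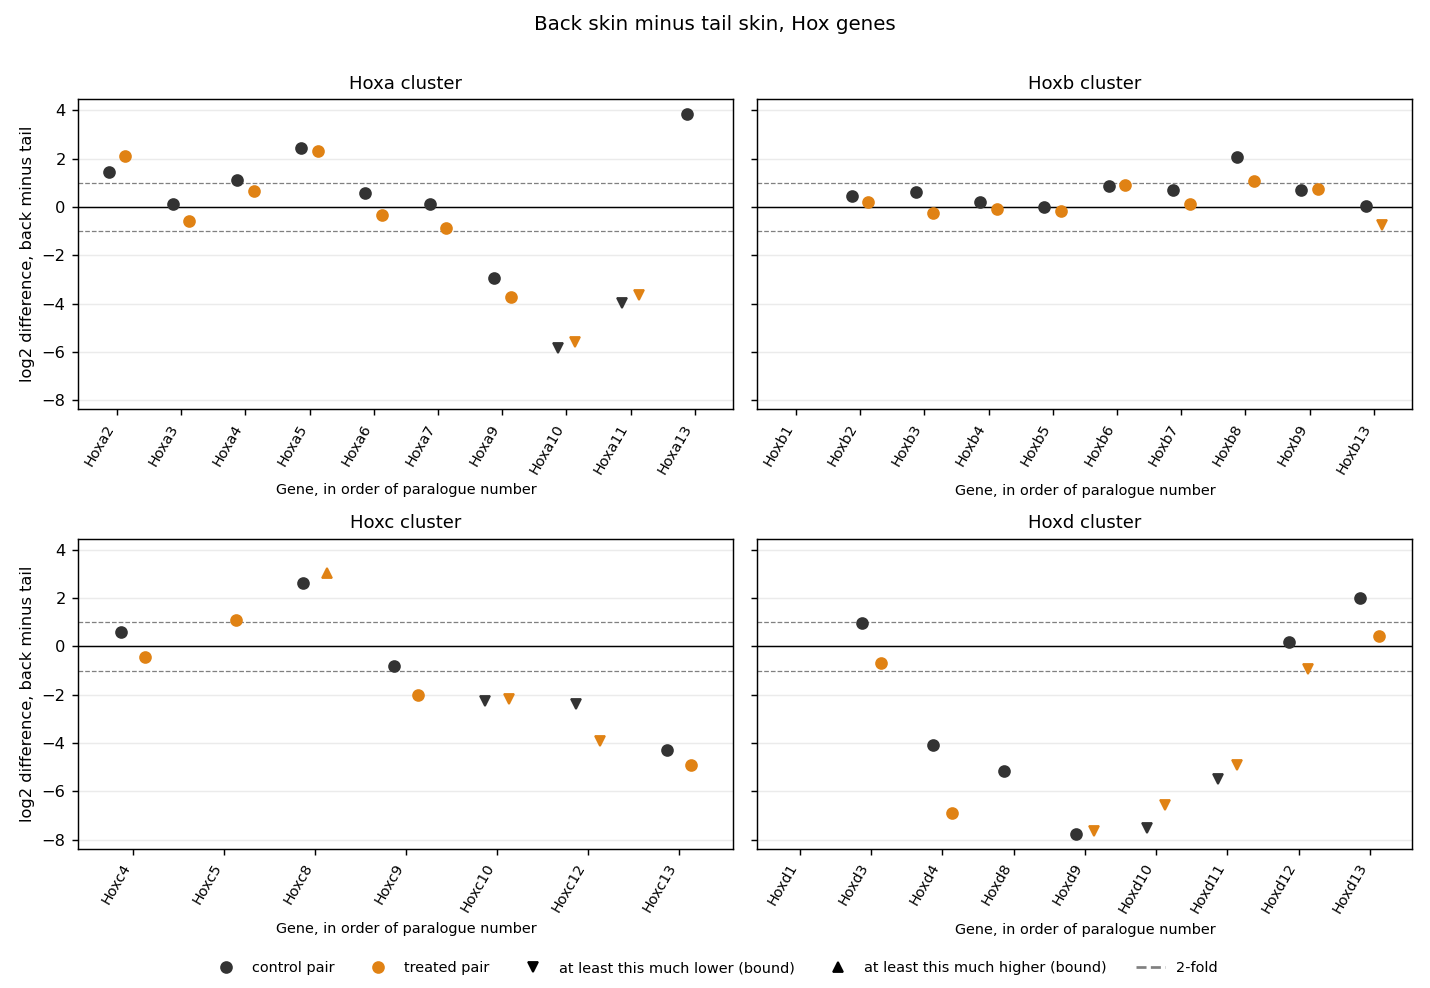
Log2 difference of back minus tail for the Hox genes, by cluster and paralogue number, with the control pair in black, the treated pair in orange and dashed lines at 2-fold. Triangles are bounds, and the Hoxa9 to Hoxa11, Hoxc10 to Hoxc13 Hoxd4 and Hoxd8 to Hoxd11 values fall below the lower line in both pairs where both exist, while Hoxb values lie between the lines except Hoxb8, the treated Hoxb13 value being a bound.

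The control pair and the treated pair share no array, so they can be set side by side. 10 genes were lower in back in both (Hoxa9, Hoxa10, Hoxa11, Hoxc10, Hoxc12, Hoxc13, Hoxd4, Hoxd9, Hoxd10 and Hoxd11) and 5 were higher in both (among them Hoxa2, Hoxa5, Hoxb8 and Hoxc8), of 17 called in the control pair and 16 in the treated pair among the 32 with both values. No gene was called in opposite directions with the scaling used for the calls. Of the 10 lower in both, 6 rest on bounds in the control pair and 7 in the treated pair. Over the 22 genes measured in both pairs the differences correlated with r = 0.92 and rho = 0.862, which describes genes and not replicate samples. No overlap or correlation over all named genes is set beside these, so neither can be read as particular to Hox genes. With normexp some genes passed 2-fold in opposite directions in the control and treated pair. These were Hoxa2 (1.54 and -1.97), Hoxa4 (1.34 and -1.08), Hoxd3 (1.54 and -2.87) and Hoxd13 (1.96 and -2.01). Hoxb13 (1.18 and -3.05) and Hoxd12 (1.09 and -3.08) did so too, though neither was well above background on back treated. Other faint genes had nearly the same treated-pair value with normexp, such as Tbx5 (-3.05), Tbx15 (-3.06) and Gsx2 (-3.06). Normexp adds 50 to each spot before scaling, which draws faint genes towards 1 value per array. For faint genes these reversals cannot be read gene by gene. The 10 genes lower in both pairs kept a negative difference in both with normexp. The 4 arrays are of 1 slide and skin site was not repeated in another way.

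**Figure D3:**
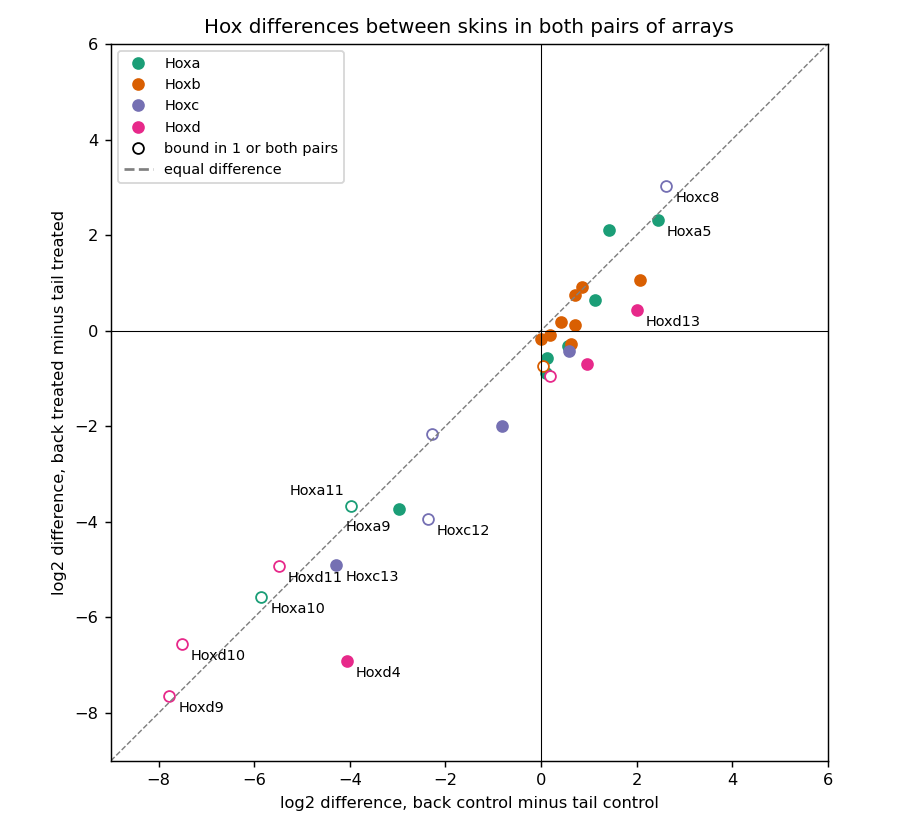
Back minus tail log2 difference of Hox genes in the treated pair (vertical axis) against the control pair (horizontal axis), 1 point a gene coloured by cluster, open where a value is a bound, with a dashed line of equal difference. The 10 genes lower in both pairs lie at the lower left, Hoxa5 stands at 2.45 and 2.32, and Hoxb genes gather near 0.

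Cell type markers also differed between the skins. Shares to set beside them are 26.5% of all named genes higher and 18% lower in back in the control pair. In the treated pair these shares were 15.9% and 20.4%. All 7 hair matrix and shaft markers with a value were lower in back in both pairs. Their medians were -4.25 and -9.64, with 5 of the 7 values in each pair being bounds from saturated tail spots. Their summed signal over the 75th percentile was 49.5 and 367 in tail, with 5 saturated spots on each array, and 1.89 and 0.88 in back. Saturated signals have a ceiling (Krt31 at 62539 and 60956 in tail), so the tail sums are lower limits. They also move with the 75th percentile, 6995.8 on tail control and 901.1 on tail treated. Krt31 was not well above background on back treated. All 3 melanocyte markers with a value were lower in back (medians -4.49 and -3.64), with summed levels of 8.50 and 14.9 in tail and 0.604 and 1.08 in back, and Tyr was well above background on tail control alone. Of 10 fibroblast markers, 8 were higher in back in the control pair and 4 in the treated pair (1 of 8 with normexp, which gave 4 lower), and 1 was lower in each, Dcn by -3.44 and -1.44, with summed levels of 8.05 and 9.72 in tail and 13.9 and 15.3 in back, while Pdgfra was not well above background on either tail array and Twist2 on tail treated. The part of these cell types in the Hox differences was not tested.

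Genes linked to Hoxc13 in the hair follicle were lower in back as well. Of its 8 listed hair genes 5 were on the array, and 3 of 4 with a value were lower in back control and 5 of 5 in back treated. Over all named genes 18% and 20.4% were lower. Foxn1, a follicle transcription factor controlled by Hoxc13, was at signals of 11241 and 1833 in tail and 409 and 315 in back, differences of -2.85 and -2.94. The hair keratin Krt31 was saturated on both tail arrays, at least 78.6-fold lower in back control and at least 4623-fold lower in back treated, Krt33a at least 16.6-fold and 795-fold, and Krt35 differed by -10.67 in the treated pair. Foxq1, a hair shaft gene, was 1.28 higher in back control and 1.89 lower in back treated. Krt31, Krt33a and Foxn1 are also among the hair markers above. Of 6 genes linked to Hoxa13 in distal skin, 1 of 4 with a value was lower in back in each pair: Bmp7 at least 2.60-fold in the control pair and the palm and sole keratin Krt9 by -1.93 in the treated pair.

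Other position genes also differed between the skins. Of 31 ParaHox, homeobox and T-box genes of position on the array, 7 of 18 with a value were higher and 5 lower in back control (5 and 7 of 19 with cyclic loess), and 0 of 20 higher and 9 lower in back treated, against the background shares given above. Tbx3, a T-box gene of limb and mammary patterning, was at least 39.0-fold lower in back control and at least 37.4-fold lower in back treated, with tail signals of 3003 and 489 and no back signal well above background. Dlx2, a distal-less homeobox gene, differed by -3.97 and -3.28, and its relative Dlx4 was at least 10.2-fold and at least 5.59-fold lower. Msx2, a hair and epidermal homeobox gene, was -1.44 and -4.01. Pitx1, the hindlimb homeobox gene, was 4.32 higher in back control and 1.77 lower in back treated, opposite between the pairs.

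The partners of Hox proteins differed in both directions. Of 10 TALE homeobox cofactors, which bind DNA together with Hox proteins, 2 were higher and 2 lower among 9 with a value in back control, and 1 and 1 of 10 in back treated (1 and 4 with normexp). The other 5 of 9 and 8 of 10 were not called, against 55.6% and 63.7% of all named genes. Meis1 was lower in back in both pairs, by -1.03 (-0.64 with normexp) and -2.16. Meis3 was 1.39 and Pbx4 1.16 higher in back control, and Tgif1 was 3.80 higher in back treated (1.83 with normexp).

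Chromatin regulators of Hox clusters were scattered in both directions. Of 19 Polycomb genes, which keep Hox genes silent, 5 were higher and 2 lower in back control (1 and 1 with cyclic loess) and 5 and 3 in back treated, against 26.5% and 18% of all named genes in the control pair and 15.9% and 20.4% in the treated pair. Rnf2 was 1.57 and 1.38 and the core subunit Suz12 1.17 and 1.81 higher in back. Phf19 was 2.75 lower in back treated, and Phc3 was 1.71 higher there, the latter turning to -2.39 with normexp. Of 11 Trithorax genes and H3K27 demethylases on the array, which oppose Polycomb, 2 were higher and 2 lower in back control and 5 and 0 in back treated. Kdm6a, an H3K27 demethylase, was 1.84 and 1.47 higher in back, the latter turning to -0.37 with normexp, and Kmt2b was 1.14 and 1.16 higher. Ash1l was 1.5 higher in back treated, or 0.46 with normexp.

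Genes beside the clusters and axial signals showed single differences. Over all named genes 26.5% were higher and 18% lower in the control pair, and 15.9% and 20.4% in the treated pair. Of 18 listed neighbours and non-coding genes of the clusters, 9 were on the array, with 3 higher and 1 lower of 7 in back control and 1 and 2 of 8 in back treated. Evx2, next to Hoxd13, was 2.05 higher in back control and 1.19 lower in back treated, Smug1 beside the Hoxc cluster was 1.44 and 2.03 lower in back, and Snx10 beside the Hoxa cluster 1.80 and 2.45 higher, the latter 0.42 with normexp. Of 9 axial signals, retinoic acid genes and geminin, 3 were higher and 1 lower in back control and 1 and 3 in back treated. Wnt3a, a tail-bud and hair follicle signal, was 3.26 lower in back control and 0.15 apart in the treated pair. Aldh1a2, which makes retinoic acid, was 2.12 and Gdf11, a trunk to tail signal, 1.87 higher in back control.

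With treatment, 24 of 33 Hox genes with a value in tail and 20 of 26 in back were not called, 1 of them in each skin on a bound, against 66.9% and 73.8% of all named genes. In tail, at 10 J/cm2, 8 genes were at least 2-fold higher after treatment and 1 lower, which is 24.2% and 3.03%, against 26% and 7.12% of all named genes. The Hox median was 0.22 and the median of all genes 0.29. The split over all genes moved to 14.1% and 12% with cyclic loess and to 43.8% and 4.62% with normexp. In back, at 2.5 J/cm2, 1 was higher and 5 lower, 3.85% and 19.2%, against 13.3% and 12.9%, with medians of -0.14 and -0.02. As dose and skin differ together, the skins' responses were not compared. Treated backs had also been shaved, and in back the part of shaving cannot be told apart from that of cream and light.

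Hoxc4 was lower after treatment in both skins. Its signal was 30337 on tail control and 552 on tail treated, and 11906 on back control and 542 on back treated, so the scaled difference was -2.82, or 7.08-fold, in tail and -3.84, or 14.3-fold, in back. Over the 75th percentile, quantile, cyclic loess, median, normexp and authors' table values the difference ran from -3.26 to -2.53 in tail and from -3.89 to -3.66 in back. Scaling on spike-in probes is not among them, and it moves the median over detected probes by a further -2.073 in tail and -0.523 in back. Hoxc4, of the neck and lymphoid cells, was the only Hox gene called in both skins. It rests on a single probe, and transcripts of neighbouring Hox genes such as Hoxc4 and Hoxc5 can overlap.

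In back, 4 other Hox genes were lower. Hoxd4 went from -3.04 to -5.62 (-2.58, and -1.15 with normexp), at signals of 222.9 and 24.3. Hoxc5, next to Hoxc4 in its cluster, was at 4.77 and 3.31 (-1.45, and -0.93 with quantile scaling). Hoxa13 was at least 4.06-fold lower, and Hoxb3 was at -1.14 and -2.30 (-1.16), while its other probe gave -0.22. Hoxb3 fell short of 2-fold with the mean of its probes and with normexp, and so did Hoxa13 with normexp.

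In tail, 8 genes were called higher with treatment, of which 5 fell short with cyclic loess or quantile scaling. Hoxc12 was at -4.14 and -2.17 (1.97, and 1.24 with cyclic loess). Hoxd3 was at -6.82 and -4.94, at signals of 61.8 and 29.4 (1.89, and 1.09 with cyclic loess). Hoxc9 was at -1.35 and -0.30 (1.05, and 1.03 with cyclic loess), and fell short of 2-fold in the authors' value table. The 5 that fell short were Hoxd13 (-5.47 and -4.23, a difference of 1.24), Hoxa6 (-4.82 and -3.63, 1.18), Hoxa7 (3.18 and 4.34, 1.16), Hoxa3 (-3.95 and -2.94, 1.02) and Hoxb7 (0.92 and 1.94, 1.02). Hoxa3 is unsettled, since its other probe gave -1.56.

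Of the 11 Hox genes called lower on back control, 10 differed by -0.55 to 0.32 between tail control and tail treated, and Hoxc12 was the exception. With normexp Hoxc10 was at 3.03 and Hoxa11 at 1.72. Over groups 9 to 13 as a whole, 3 of 14 genes with a value were higher in tail with treatment, Hoxc9, Hoxc12 and Hoxd13. This description shares the tail control array with the choice of those genes.

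**Figure D4:**
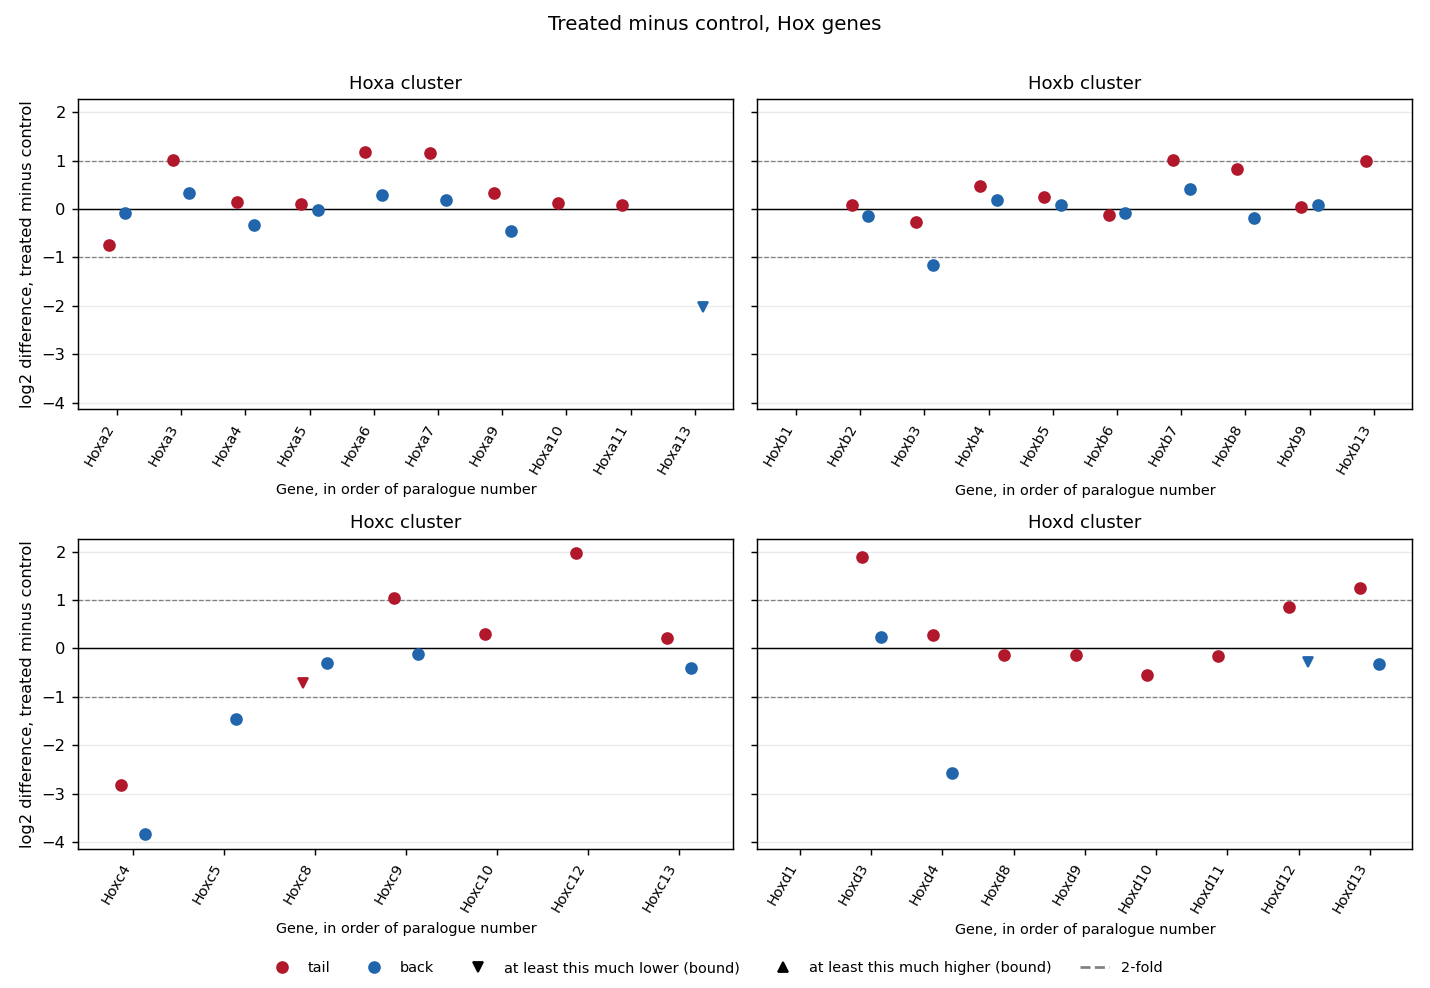
Log2 difference of treated minus control for the Hox genes, by cluster and paralogue number, with tail (10 J/cm2) in red and back (2.5 J/cm2) in blue, triangles for bounds and dashed lines at 2-fold. Hoxc4 stands at -2.82 and -3.84, Hoxd4 at -2.58 in back, and the posterior Hoxa9 to Hoxa11 and Hoxd8 to Hoxd11 points in tail lie between -0.55 and 0.32.

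Position genes also differed with treatment. Of 22 with a value in tail, 13 were higher and 2 lower (8 and 6 with cyclic loess), against 26% and 7.12% of all named genes, and in back 1 of 13 was higher and 6 lower, against 13.3% and 12.9%. Gsx1, a ParaHox gene, had signals of 58547 and 1188 in tail and 21757 and 1243 in back, differences of -2.67 and -3.51. Pitx1 was 3.61 higher in tail and 2.48 lower in back. Mnx1 was 2.65 and Gsx2 2.35 higher in tail, and Msx1 was 2.38 lower and Barx2 1.41 lower in back.

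Cofactors and chromatin genes are to be read against 66.9% of all named genes not called with treatment in tail and 73.8% in back. Of the cofactors, 2 of 10 were higher and 1 lower in tail and 2 of 9 higher in back: Tgif1 was 2.79 lower (-0.73 with normexp), Meis1 1.75 higher and Meis3 1.35 higher (0.58 with cyclic loess) in tail, and Pbx2 1.51 higher in back. Of 19 Polycomb genes, 2 were higher and 4 lower in tail and 1 and 2 in back, with Phf19 2.74 higher, Suz12 1.33 lower and Eed 1.25 lower in tail, and Phc1 2.57 higher and Cbx7 1.84 lower in back. All 11 Trithorax genes lay within 2-fold in both skins, save in tail 1 lower with cyclic loess, 1 lower with quantile scaling, and 1 higher and 2 lower with normexp. Of 5 hair genes linked to Hoxc13, 4 were lower in back with treatment, Krt31 at least 7.77-fold, Krt33a by 2.70, Foxq1 by 1.67 and Krt35 by 1.61 (-0.46 with normexp), while in tail 1 of 2 with a value was higher, Foxq1 by 1.5 (0.94 with normexp).

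Over all named genes 26% were higher and 7.12% lower with treatment in tail, and 13.3% and 12.9% in back. Of the genes linked to Hoxa13, 1 of 3 was higher and 1 lower in tail (Krt9 1.78 higher, Bmp2 1.91 lower, or -0.15 with normexp) and 1 of 4 each in back (Bmp7 1.27 higher, Bmp2 1.39 lower). Among 7 cluster neighbours with a value, 1 was higher in tail and 1 higher and 1 lower in back: Evx2 was 1.90 higher in tail and 1.35 lower in back, and Snx10 1.30 higher in back. Of the axial signals, 3 of 9 were higher in tail (Aldh1a2 2.03, Gdf11 1.84 and Cyp26b1 1.31, or 0.49 with normexp), and 2 were higher and 2 lower in back, where Wnt3a was 3.66 higher, geminin 1.49 higher, Cyp26a1 at least 2.12-fold lower and Aldh1a2 1.02 lower, at -0.12 and -0.32 with normexp.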

How the data were processed

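The 4 arrays are single-colour Agilent arrays of 1 slide, hybridised with Cy3-labelled RNA from 200 ng, per the labels' protocols. The deposited signal is a spot intensity corrected for background within the array, per the file headers, by Feature Extraction 10.5.1.1 (10.7 in the submitters' processing notes). The authors' value table is on a log2 scale: its differences between arrays match those of the deposited signal up to a constant (within 0.001 for 100% of single-spot probes). Its probes were centred and its between-array constants are of unstated origin.

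Values are log2 of the processed signal minus the 75th percentile over non-control probes, with spots marked as outliers left out and repeated spots averaged. Probes were named by accession through RefSeq (GRCm38.p6), which gave 1 symbol to 24375 of 41174 probes (59.2%). The probe with the highest mean level over the arrays stood for a gene. With 1 array a group there is no test, and a call is a difference of at least 2-fold. Alternatives used limma 3.58.1 in R 4.3.3, and calling was tested on simulated data. Normexp (offset 50) used the median spot signal. Its offset was added before scaling, which draws faint genes towards 1 value per array. Named are all Hox genes called in any comparison, group 13, and up to 4 called members a list. Members and lists were chosen with earlier results of these data known. A few members and list genes are counted but not reported here by name or value, in text or plots.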

Additional observations from a re-analysis of the deposited data

Results flagged for a closer look

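4 Hox spots that were marked as outliers were well above background. They entered the values only where outlier spots were kept. Hoxc5 on tail control (signal 24707.7, level 1.82) and Hoxd8 on back treated (60.5, level -4.30) are the genes' own spots, and the other 2 are of second probes. On the tail treated array the second Hoxd3 probe had a signal of 8337.6, which is a level of 3.21, while its tail control spot had a signal of 399.5 and its back spots were not well above background. On the back treated array the second Hoxa3 probe had a signal of 282.3, a level of -2.08, while its signal was 215.6 on back control and 24.0 on tail treated. Neither has a repeat spot, and what set them apart was not tested.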

How the results depend on the processing

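Of the 19 Hox genes called in the control pair of skins, 17 kept a 2-fold difference with normexp, 18 with the authors' value table and all 19 with quantile scaling and cyclic loess. Of the 17 called in the treated pair, 12 of 16 with a value kept it with normexp, where Hoxa2 turned to -1.97 and Hoxb8 to -0.44, and all 17 with the other scalings and the authors' table. Of 9 called with treatment in tail, 4 kept it with cyclic loess or quantile scaling and 3 with the authors' table, and Hoxa3 turned to -0.27 with the mean of its probes and to -1.53 with outlier spots kept. The cause was not tested. In the control pair, genes with signals of at least 200 on both arrays gave 3 higher and 3 lower, and genes measured on both arrays, an alternative chosen after seeing the data, 5 lower, as fewer genes enter. The median there was 0.57 with normexp, -0.11 with quantile scaling, 0.59 with the signal minimum and 0.58 for measured genes. In the treated pair, normexp gave 2 higher, 22 lower and a median of -1.99, the signal minimum 1 higher, 1 lower and 0.11, measured genes 4 lower and -0.09, and the authors' table a median of -0.21. With treatment in tail, genes higher numbered 17 with normexp, 3 with quantile scaling, cyclic loess and the signal minimum each, and 2 with the authors' table, genes lower 4 with quantile scaling, 3 with cyclic loess and the authors' table and 2 with outlier spots kept, and the median was 1.39 with normexp, -0.02 with cyclic loess and -0.22 with the authors' table. With treatment in back, genes higher numbered 2 with outlier spots kept and 2 with no filter, and genes lower 3 with normexp and 3 with the signal minimum. Against the 75th percentile, the median of all probes detected on every array shifted in back control minus tail control, back treated minus tail treated, tail treated minus tail control and back treated minus back control by -1.015, 0.535, -2.073 and -0.523 with spike-in probes, by 0.142, -0.660, 0.695 and 0.141 with normexp, by -0.302, 0.131, -0.282 and 0.035 with quantile scaling and by -0.219, 0.155, -0.294 and 0.016 with cyclic loess. No paired analysis was possible because each group has 1 array, and for the same reason no replicate could be left out. Signals near background limit the bounds, and the lowest scaled signal well above background was highest on back treated, at -6.107 against -6.456 on tail treated, -6.506 on back control and -8.292 on tail control.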
